A study of Mus musculus with 4 samples.

Results

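Double-positive (DP) thymocytes are the CD4+CD8+ stage of T cell development. They carried 756 open chromatin regions that lie away from the span ends of protein-coding genes and close to each other, in 130 chains. The 756 come from 107607 regions that hold an ATAC-seq peak in at least 1 of 4 lists, 2 of DP cells and 2 of double-negative (DN) cells. ATAC-seq marks open chromatin by the sites where a transposase can cut. All cells were sorted directly from the thymus. The mice were wild type, of strain C57BL/6J and 5 to 7 weeks old, and the labels name no treatment. The DP lists are of CD4+CD8+ cells, and the DN lists are of cells without CD4 and CD8 that carry CD25 and range from CD44- to CD44+. The series belongs to a study of enhancers in developing lymphocytes that also used mutants, and every library used here is wild type. Whether the 2 samples of a cell type come from different mice is not in the labels, and their spread may then be only technical.

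The regions were chosen by their peaks in the DP lists. Peaks on chromosomes 1 to 19 and X that shared at least 1 bp were merged. Of the merged regions, 22167 had a peak in both DP lists, and 13668 of these were distal, with a midpoint more than 1 kb from either end of any of 21627 protein-coding genes. Neighbouring distal regions with gaps of at most 12.5 kb were joined, and runs of at least 5 regions were kept. This left 5.53% of the distal regions, called clustered below, and 12912 unclustered distal regions. Presence in both DP lists and closeness are therefore not results. Presence in a DN list was not asked for, but DN peaks took part in the merging that set the bounds of regions. The choice is thus not fully independent of the DN lists. Without DN 1 it gave 762 regions in 131 chains, and without DN 2 it gave 756 in 130. Because the lists have no counts, the depth is unknown, and absence of a peak and shallow coverage cannot be told apart.

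Enhancers are stretches of DNA that bind transcription factors and raise transcription of genes that may lie far away. Several open sites close together often surround genes that define a cell type, and a joining distance of 12.5 kb is widely used when such clusters are called from enhancer marks. In the thymus, T cell precursors rearrange the T cell receptor beta genes at the DN stage, pass to the DP stage, express CD4 and CD8, and there rearrange the receptor alpha genes.

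The labels were checked against peaks within 1 kb of gene ends. Peaks lay at the ends of 6 and 6 of 6 T lineage genes in DP 1 and DP 2, against 1 and 2 of 6 in DN 1 and DN 2. Cd3d, Cd3g, Lck and Thy1 encode parts of the T cell receptor complex, its kinase and a T cell surface protein. None of them had such a peak in a DN list, so both DN lists lack most of the T lineage marks looked for. All 5 DP stage genes had one in DP 2 and 4 in DP 1, against 1 in each DN list. Of 12 housekeeping genes, 10 and 10 had such a peak in the DP lists, against 10 and 7 in the DN lists. For the CD25+ DN stage, Il2ra, which encodes CD25, and Ptcra, the pre-T receptor alpha chain, both had a peak in DP 2 and in DN 1 and neither had one in DP 1 or DN 2. For other cell types the counts were 2 and 3 of 12 B cell genes in the DP lists against 2 and 1 in the DN lists, 2 and 0 of 12 myeloid genes against 1 and 1, 4 and 5 of 12 NK and innate lymphoid genes against 3 and 1, 2 and 2 of 10 erythroid genes against 3 and 1, and 2 and 2 of 12 thymic stromal genes against 1 and 0. The lists had 39718 and 70385 peaks in DP cells and 38808 and 33131 in DN cells, so DP 2 is the longest list. The part of cell makeup and of list length in the counts below was not tested, except where values at equal length or without a list are given.

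The regions shown first are those whose sequence could be read, because an annotated promoter window of 300 bases lies wholly inside them. Although the members stand away from the span ends of protein-coding genes, 47 of the 756 overlapped such a window. The windows were of an internal start of a protein-coding gene (25 regions) or of a long noncoding RNA (26 regions). Of these 47 regions, 10 (21.3%) were in neither DN list, 19 in 1 and 18 (38.3%) in both. Over all 756 members the shares were 47.1% in neither and 22.9% in both, so the regions with windows are not typical of the members. The sequences are from RefSeq (GRCm38.p6, the build that mm10 names), 5′ to 3′ on the strand of the gene. Capitals mark matches to motifs of thymocyte transcription factor families. Dgkz, Gm32999 and Nr4a1 are shown because neither DN list held their regions, and Arpp21 and Firre because both did.
Dgkz, chr2:91950299-91950598, minus strand: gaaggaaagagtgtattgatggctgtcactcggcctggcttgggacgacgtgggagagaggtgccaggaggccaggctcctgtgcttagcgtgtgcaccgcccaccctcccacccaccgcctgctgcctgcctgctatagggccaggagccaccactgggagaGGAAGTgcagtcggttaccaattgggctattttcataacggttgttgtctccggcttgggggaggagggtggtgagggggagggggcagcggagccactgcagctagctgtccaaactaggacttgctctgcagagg
Dgkz, chr2:91963514-91963813, minus strand: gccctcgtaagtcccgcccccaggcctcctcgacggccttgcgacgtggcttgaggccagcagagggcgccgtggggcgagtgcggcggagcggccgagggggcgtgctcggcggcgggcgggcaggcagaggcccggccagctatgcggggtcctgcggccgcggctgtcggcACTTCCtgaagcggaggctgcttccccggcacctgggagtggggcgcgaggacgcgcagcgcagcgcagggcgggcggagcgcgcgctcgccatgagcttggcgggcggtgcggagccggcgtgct
Gm32999, chr1:165849077-165849376, minus strand: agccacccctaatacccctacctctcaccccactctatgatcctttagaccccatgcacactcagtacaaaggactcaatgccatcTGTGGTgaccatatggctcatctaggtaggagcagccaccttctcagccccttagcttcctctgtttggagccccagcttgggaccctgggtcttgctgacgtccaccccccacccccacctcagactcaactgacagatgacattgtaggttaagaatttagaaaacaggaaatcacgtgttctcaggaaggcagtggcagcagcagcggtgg
Nr4a1, chr15:101266596-101266895, plus strand: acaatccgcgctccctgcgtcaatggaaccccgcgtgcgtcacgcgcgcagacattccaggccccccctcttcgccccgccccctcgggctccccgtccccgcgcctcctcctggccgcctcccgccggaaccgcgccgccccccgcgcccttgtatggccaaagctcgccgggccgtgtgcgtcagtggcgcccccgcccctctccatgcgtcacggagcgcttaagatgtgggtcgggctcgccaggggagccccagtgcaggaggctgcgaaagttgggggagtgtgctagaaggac
Arpp21, chr9:112217302-112217601, minus strand: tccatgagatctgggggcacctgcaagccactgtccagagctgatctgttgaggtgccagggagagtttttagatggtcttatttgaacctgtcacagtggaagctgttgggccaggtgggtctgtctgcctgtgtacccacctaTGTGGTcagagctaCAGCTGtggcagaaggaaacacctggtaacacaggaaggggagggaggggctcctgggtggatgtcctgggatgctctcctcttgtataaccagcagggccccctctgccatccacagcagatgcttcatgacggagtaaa
Firre, chrX:50635272-50635571, minus strand: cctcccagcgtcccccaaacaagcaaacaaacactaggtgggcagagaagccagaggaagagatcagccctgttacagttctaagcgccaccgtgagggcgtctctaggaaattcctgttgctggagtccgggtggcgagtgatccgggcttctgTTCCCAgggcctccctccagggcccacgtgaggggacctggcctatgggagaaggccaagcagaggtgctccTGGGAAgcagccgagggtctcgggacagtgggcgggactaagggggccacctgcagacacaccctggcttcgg

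The letters searched, on both strands, were GGAAGT for ETS factors, TGTGGT for RUNX, CTTTGA for TCF and LEF, CAGCTG for E proteins, AGATAA for factors of the GATA family, AGGTCA for nuclear receptors and TGGGAA for Ikaros, with CCAATCA as a comparison motif. Overlap between motifs was allowed. Of the 56 windows that overlap a member, 46 of them wholly inside it, 33.9% held an ETS match anywhere in the window, against 23.9% of all 32619 windows of the table. RUNX matches were in 21.4% against 16.6%, TCF and LEF in 19.6% against 16.0%, E box in 17.9% against 16.4%, nuclear receptor matches in 19.6% against 16.2%, Ikaros in 26.8% against 25.4% and GATA in 10.7% against 11.2%. The comparison motif also stood higher, at 12.5% against 7.85%. Some windows overlap each other, such as those of Fbxl18 and Gm38733, so the same match can count in several windows. Both Dgkz windows held 1 ETS match, the Gm32999 window 1 RUNX match, the Arpp21 window 1 E box and 1 RUNX match, and the Firre window 2 Ikaros matches, while the Nr4a1 window held none of the letters searched. A match is a run of letters and not evidence of binding.

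MicroRNA genes lay within 5 kb of 5 chains. Those of 2 chains are shown because microRNAs have defined mature sequences and because miR-181 and miR-142 are known from T cell development. Capitals mark the seed, bases 2 to 8, which pairs with target RNAs. The sequences are RefSeq's on GRCm38.p6.
mmu-miR-181c-5p, chr8:84178924-84178945, minus strand: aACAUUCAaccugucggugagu
mmu-miR-181d-5p, chr8:84178759-84178781, minus strand: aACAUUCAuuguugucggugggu
mmu-miR-23a-3p, chr8:84208563-84208583, plus strand: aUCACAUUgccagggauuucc
mmu-miR-27a-3p, chr8:84208727-84208747, plus strand: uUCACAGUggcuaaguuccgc
mmu-miR-24-3p, chr8:84208875-84208896, plus strand: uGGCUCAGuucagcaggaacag
mmu-miR-142a-5p, chr11:87756867-87756887, plus strand: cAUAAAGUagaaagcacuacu
mmu-miR-142a-3p, chr11:87756903-87756925, plus strand: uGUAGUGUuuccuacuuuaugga

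The first 2 share the seed ACAUUCA, and the other 5 each have a seed of their own. The chain between Nanos3 and Zswim4 (chr8:84180351-84208200, 7 regions) has the mature sequences of miR-181c-5p and miR-181d-5p 1406 and 1570 bp from one end and those of miR-23a-3p, miR-27a-3p and miR-24-3p 363, 527 and 675 bp from the other. It held 9 and 7 peaks in the DP lists, against 3 and 2 in the DN lists. The miR-142 gene lies inside the chain at Tspoap1 (chr11:87744751-87760000, 5 regions), with 5 and 5 peaks in DP cells against 1 and 0 in DN cells. Only the fourth of its regions, 967 bp from the mature miR-142a-5p, had a DN peak. miR-181 molecules are known to tune the sensitivity of the T cell receptor in thymocytes, and miR-142 is made in most blood cells.

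A typical chain spanned somewhat more DNA than a typical gene. Chain spans had a median of 25225 bp, against 17330 bp for protein-coding genes, ranged between 8250 and 76000 bp and added up to 3.47 Mb. Of the 130 chains, 73 had 5 regions, 29 had 6, 17 had 7, 7 had 8, 2 had 10 and 2 had 11. The median gap between neighbours was 3875 bp, and regions covered a median of 15.7% of the span. At the limits of the rule, the largest gap inside a chain was 12450 bp and the smallest gap over the limit between distal regions was 12550 bp. Likewise 151 runs of 4 regions, with 604 regions, fell just short, and 73 runs of 5, with 365 regions, just passed. Within the spans lay 228 other regions, of which 72 had a peak in DP 1 alone of the DP lists, 108 in DP 2 alone, 18 were at gene ends and 30 were in no DP list.

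The receptor alpha, CD8 and Firre chains were nearly empty in DN cells, while the 3 longest chains were not. The chain at Nrip1 (chr16:76299351-76372550), a corepressor of nuclear receptors, is 1 of 2 with 11 regions, the most of any chain. Its regions held 16 and 15 peaks in DP 1 and DP 2, against 7 and 4 in DN 1 and DN 2, and 3 of them were in neither DN list. The chain over Slc6a19 and Slc12a7 (chr13:73688651-73749450), an amino acid and a potassium chloride transporter, had 11 regions with 13 and 12 peaks in DP cells against 10 and 9 in DN cells. The chain in Sdccag8 (chr1:176933151-177009150) had 10 regions with 12 and 12 peaks against 10 and 6. Between 4 and 7 regions of each of these chains were in a given DN list.

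The chain over Cd8b1 and Cd8a (chr6:71324801-71375450), which encode the chains of the CD8 coreceptor that defines the DP stage, had 10 regions. They held 13 and 10 peaks in DP 1 and DP 2, against 0 and 1 in DN 1 and DN 2. Only the fifth region (chr6:71341051-71341750), between the genes, had a DN peak. The 4 regions nearest its lower end lie in Cd8b1 or within 2083 bp of it, and the tenth lies in Cd8a. The eighth region (chr6:71369101-71370000), 3877 bp from Cd8a, was the only one of the chain whose peaks had, in both DP lists, the smallest p-value that the list holds. The next gene beyond Cd8a is Rmnd5a, 13184 bp from the chain.

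**Figure D1:**
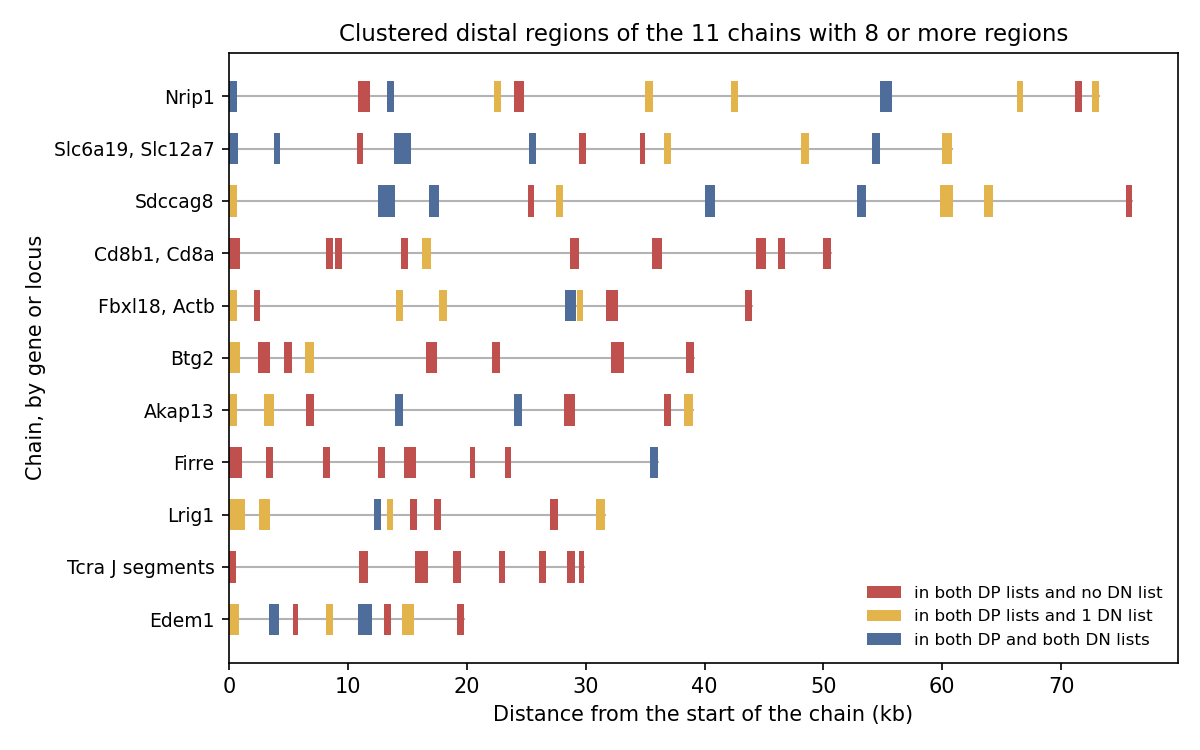
Regions of the 11 chains with 8 or more regions, each row 1 chain, drawn to scale as distance in kb from the start of the chain. Red regions have a peak in no DN list, yellow in 1 and blue in both. The Tcra J row is red throughout, the Cd8b1 and Cd8a row has 1 yellow region, the Firre row has 1 blue region at its end, and the Nrip1, Slc6a19 and Sdccag8 rows mix all colours.

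Firre (chrX:50599601-50635700), a long noncoding RNA gene known for its part in nuclear organisation, held 8 regions with 10 and 11 peaks in DP cells against 1 and 1 in DN cells. The region that both DN lists held is the last, 11650 bp beyond its neighbour, and contains the promoter window printed above. The other 7 were in neither DN list. The nearest protein-coding gene in the table is 173 kb away. At Btg2 (chr1:134060601-134099700), which restrains cell division, 8 regions held 10 and 11 peaks in DP cells against 2 and 0 in DN cells. The other chains of 8 lay over Fbxl18 and Actb, with 8 and 8 peaks against 5 and 1, in the anchoring protein gene Akap13 with 8 and 9 against 5 and 3, over Lrig1, a brake on growth factor receptors, with 9 and 9 against 4 and 2, and over Edem1, of protein quality control, with 10 and 9 against 5 and 2. The twelfth chain by size, of 7 regions 42105 bp from the chromatin remodeller gene Chd2, held 7 and 7 peaks against 4 and 3. Among the 11 chains with 8 or more regions, a mean of 60, 59.1 and 50% of regions was held per DN list at Sdccag8, Slc6a19 and Nrip1, and 0, 5.0, 12.5 and 12.5% at the Tcra J segments, Cd8b1 and Cd8a, Btg2 and Firre.

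Antigen receptor segments held 4 chains with 26 regions. Receptor segments are not among the protein-coding genes of the table, so open sites at them count as distal here. The J segments of the receptor alpha locus (chr14:54152701-54182550, Traj36 to Traj61) held 8 regions with 15 and 10 peaks in DP cells, against 0 and 0 in DN cells. Variable segments of the same locus (chr14:53537751-53563000, Trav12-1 to Trav15-1-dv6-1) held 5 regions with 5 and 6 peaks, against 0 and 0. Receptor alpha joining takes place at the DP stage. The D, J and constant segments of the receptor beta locus (chr6:41532551-41558800, Trbd1 to Trbv31) held 7 regions with 8 and 8 peaks in DP cells, against 8 and 5 in DN cells, and 4 of the 7 were in both DN lists. Receptor beta joining takes place at the DN stage. Variable segments of the immunoglobulin heavy chain locus (chr12:114583301-114616200, Ighv1-9 to Ighv1-12), which join in B cells, held 6 regions with 7 and 6 peaks in DP cells against 0 and 1 in DN cells. Variable segments resemble each other, so reads from one may have been placed on another, which was not tested.

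Over all members, DN 1 held 358 regions (47.4%) and DN 2 held 215 (28.4%). Of the 756, 356 (47.1%) were in neither DN list, 227 (30.0%) in 1 and 173 (22.9%) in both. Among the unclustered distal regions 42.9% were in neither and 28.4% in both. The mean share held per DN list was 37.9 ± 13.4% for clustered and 42.8 ± 12.8% for unclustered regions (SD, n = 2 lists). The difference, clustered minus unclustered, was -4.51 percentage points in DN 1 and -5.27 in DN 2. It was -1.32 when members were chosen on DP 2 alone and 3.5, of the opposite sign, when they were chosen on DP 1 alone, so its direction depends on DP 2. Both sets stood below DP regions at gene ends, of which 72.3 and 51.2% were in DN 1 and DN 2.

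**Figure D2:**
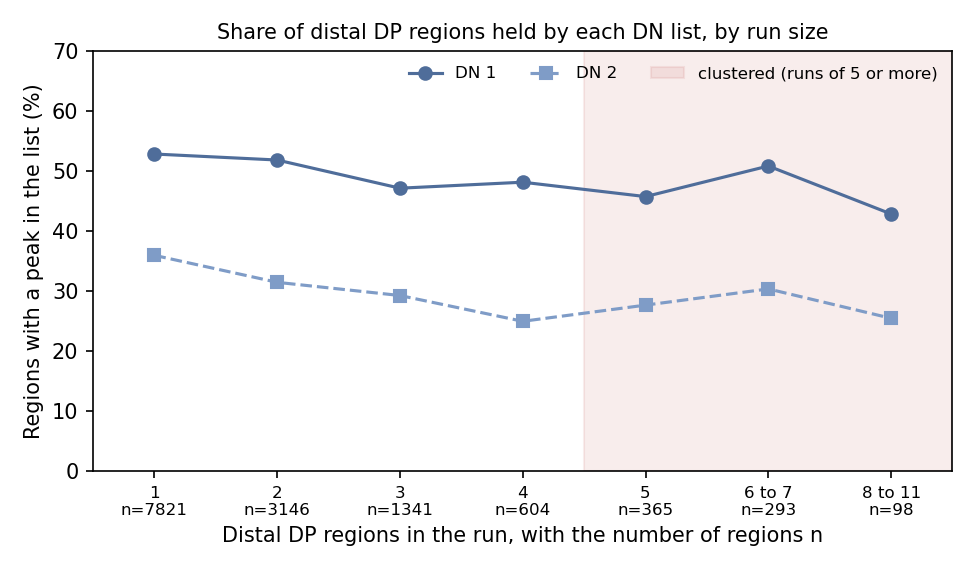
Percentage of distal DP regions with a peak in DN 1 (circles) and DN 2 (squares), by the number of regions in the run they belong to, with the number of regions under each point. DN 1 runs between 52.9% for single regions and 42.9% for runs of 8 to 11, and DN 2 between 36.0% for single regions and 25% for runs of 4, with runs of 6 to 7 above runs of 5 in both lists.

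The share held by DN lists did not fall steadily with the size of the run. DN 1 held 52.9% of single regions, 51.9% of pairs, 47.2% in runs of 3, 48.2% in runs of 4, 45.8% in runs of 5, 50.9% in runs of 6 to 7 and 42.9% in runs of 8 to 11. DN 2 held 36.0, 31.5, 29.3, 25, 27.7, 30.4 and 25.5% over the same sizes. The last size rests on 98 regions in 11 chains. The first or last region of a chain was in DN 1 in 51.2% and in DN 2 in 28.5% of 260 cases, and an inner region in 45.4% and 28.4% of 496. These are descriptions, since regions of 1 chain are not replicates.

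Clustered and unclustered regions had the same median width of 650 bp, but members had somewhat better-ranked DP peaks. Ranked by the authors' p-value within each list, the peaks of clustered regions stood at a median percentile of 65.8 in DP 1 and 79.8 in DP 2, against 59.2 and 76.0 for unclustered regions. Members that DN cells also held had higher ranks. The medians were 78.1 and 88.1 for members in both DN lists, 68.4 and 79.8 for those in 1 and 55.1 and 73.8 for those in neither, and median widths were 800, 700 and 600 bp. Unclustered regions showed the same order, with 72.0 and 85.4 in both DN lists, 62.7 and 78.1 in 1 and 49.8 and 68.8 in neither. The rank of a DP peak thus moved with presence in DN cells, and its part in the differences between chains was not tested. Of the clustered regions, 60.6% lay inside a gene, against 54.8% of the unclustered ones.

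Most chains were neither wholly present nor wholly missing in the DN lists. Of 130 chains, 114 mixed regions that a DN list held with regions that none held. In 7 chains no region was in a DN list, in 9 every region was in at least 1, and in 41 no region was in both. DN 1 held more regions than DN 2 in 91 chains, fewer in 13 and as many in 26. Within members, DP 1 and DP 2 had 897 and 878 peaks and DN 1 and DN 2 had 413 and 246.

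**Figure D3:**
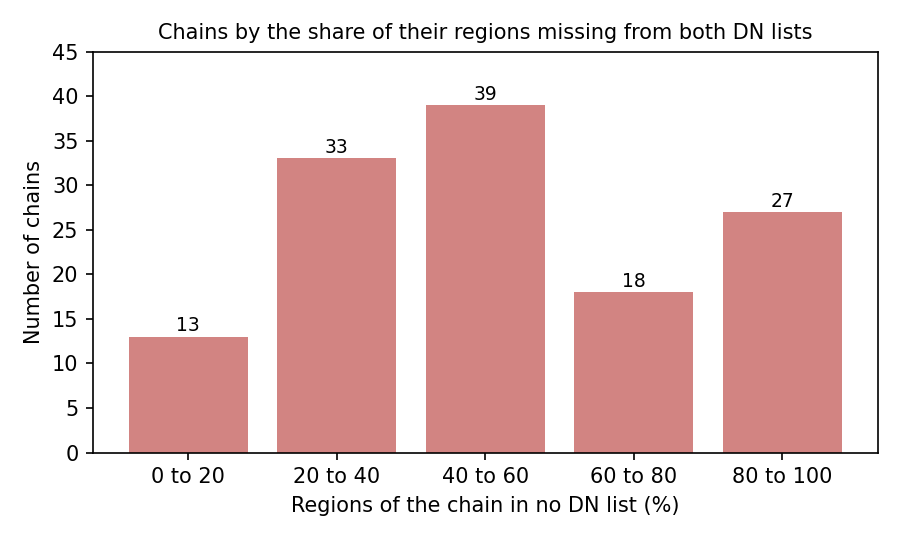
Number of chains by the percentage of their regions that had a peak in neither DN list, in steps of 20 percentage points that include their lower edge. The middle step, 40 to 60%, holds the most chains (39), and 27 chains stand at 80% or more.

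The 7 chains with no DN peak are named here although most were not picked by size, after their values were seen. Besides the pair at the receptor alpha locus, 4 lie inside a protein-coding gene. Dgkz (chr2:91944101-91964050) encodes a diacylglycerol kinase that dampens signals from the T cell receptor, and its 5 regions held 6 and 6 peaks in DP 1 and DP 2. Prkch (chr12:73593201-73612250) encodes protein kinase C eta and held 7 and 6 peaks. Nfatc1, a transcription factor switched on by calcium signals, held 5 and 6, and Nck2 (chr1:43451251-43468500), an adaptor that links receptors to actin, held 6 and 5. The seventh chain (chr10:19167601-19195150) had 6 and 7 DP peaks, overlaps the noncoding gene Gm20139 and is 152 kb from its nearest protein-coding gene, Tnfaip3, which limits NF-kappaB signals. All 7 had 0 and 0 peaks in DN 1 and DN 2 by the way they were picked.

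At the other end, the chain inside Sfi1 (chr11:3184151-3198650), a centrosome gene, was in all lists at all 7 regions. It held 13 and 13 peaks in DP cells against 10 and 16 in DN cells, and regions filled 63.8% of its span, the highest share of any chain. Without it the clustered minus unclustered difference was -5.47 percentage points. The other 8 chains in which every region was in at least 1 DN list included those at Bach1, a repressor that senses haem, with 7 and 6 peaks in DP cells against 6 and 5 in DN cells, at Itpkb, an inositol kinase needed for thymocyte selection, with 5 and 5 against 4 and 3, and at Dnttip2 and the microRNA gene Mir760, with 5 and 5 against 5 and 5. In the Ptpre chain, a phosphatase gene, DN 1 held every region and DN 2 none, with 8 and 6 peaks in DP cells against 6 and 0.

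Chains overlapped a protein-coding gene in 95 of 130 cases, 58 of them wholly inside 1 gene. Long noncoding RNA genes were overlapped by 63 chains, and 7 chains had no protein-coding gene within 100 kb. In all, 107 genes were overlapped (0.495% of all) and 157 more were the next gene on one side within 100 kb, which makes 264 (1.22%). Of 25 genes of the DP stage, 7 (28.0%) were among them, against 0 of 20 genes of the DN stage and of progenitors. Cd8a, Cd8b1 and Rmnd5a, which are among the 7, share the same chain, so the genes counted are not separate cases. Genes overlapped by a chain were long, with a median span of 66846 bp against 17330 bp for all genes, and the part of gene length in these shares was not tested. The DP stage list had a median span of 20920 bp and the DN list 32525 bp.

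**Figure D4:**
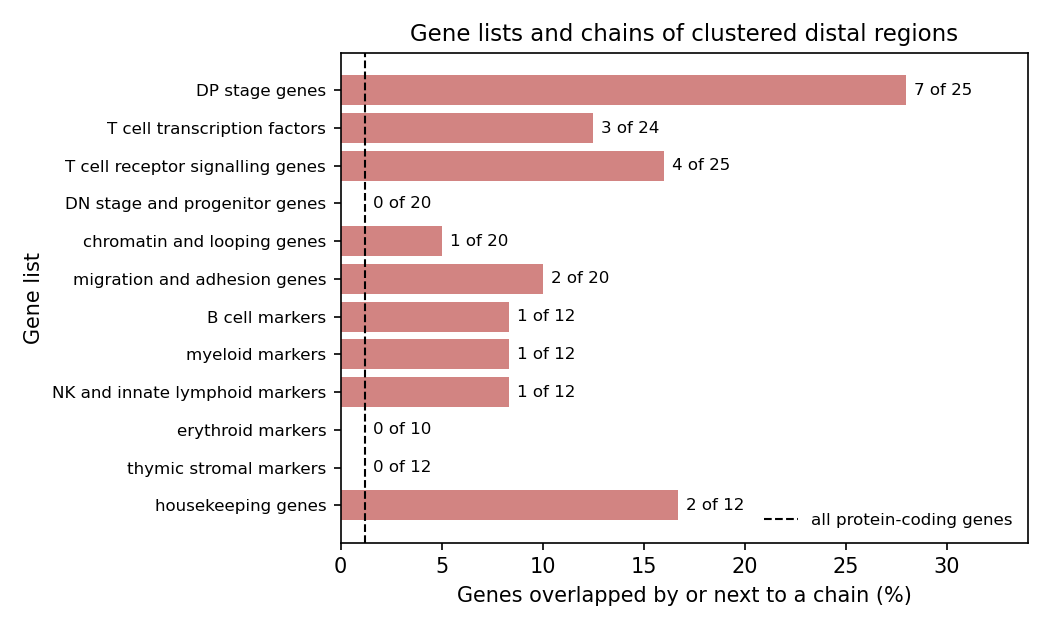
Percentage of the genes of each list that a chain overlaps or lies next to within 100 kb, with the counts beside the bars, and the share over all protein-coding genes (1.22%) as a dashed line. The DP stage list stands highest at 7 of 25, where Cd8a, Cd8b1 and Rmnd5a share the same chain. Housekeeping genes reach 2 of 12, and the DN stage, erythroid and thymic stromal lists are at 0.

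Among DP stage genes, chains lay over Cd8a, Cd8b1, Dntt and Arpp21. Dntt encodes the enzyme that adds bases at receptor joints, and its chain (chr19:41015951-41039600, 6 regions) held 8 and 8 peaks in DP cells against 4 and 1 in DN cells. The chain in Arpp21 (chr9:112207601-112227650, 5 regions), an RNA-binding protein gene that also hosts a microRNA, held 7 and 5 peaks against 4 and 2. Satb1, an organiser of thymocyte chromatin, had its chain 45761 bp away (chr17:51879051-51906850, 5 regions), with 5 and 5 peaks against 1 and 0. The one Satb1 region with a DN peak was the nearest to the gene.

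Of 24 T cell transcription factors, 3 (12.5%) had a chain in or next to them. Bcl11b, needed for commitment to the T lineage, held 5 regions within 12450 bp (chr12:107918651-107931100), with 5 and 5 peaks in DP cells against 2 and 1 in DN cells. Foxp1, which keeps T cells quiescent, held 7 regions (chr6:99368001-99402300) with 9 and 7 peaks against 2 and 0. Satb1 was the other. Genes without a chain can still have many distal DP regions near them. Within 50 kb Ets1 had 12 such regions, Runx1 8, Tcf7 6, Lef1 6 and Gata3 5, in runs of at most 3, 3, 3, 2 and 4 regions. Cd4, Rag1, Rag2 and Il2ra, the coreceptor, the recombinase pair and CD25, had 4, 4, 5 and 8 regions, in runs of at most 2, 3, 3 and 4.

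Of 25 genes of T cell receptor signalling, 4 (16.0%) were in or next to a chain. Cd247, the zeta chain of the receptor complex, held 7 regions (chr1:165828051-165854150) with 9 and 10 peaks in DP cells against 3 and 1 in DN cells. Both DN lists held the fifth region, and neither held the sixth, which contains the Gm32999 window printed above. Nfatc1 is described above. Rasgrp1, which activates Ras after receptor engagement, had a chain 56424 bp away with 6 and 6 peaks against 5 and 2, and Dusp6, a phosphatase of ERK kinases, lay 80531 bp from a chain in Poc1b. Nr4a1, an early gene of receptor signalling that is on none of these lists, is overlapped only in part by its chain (chr15:101235051-101267150, 5 regions). That chain held 5 and 5 peaks in DP cells against 3 and 0 in DN cells.

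Of the remaining lists, chromatin and looping genes had 1 of 20 with Hdac7, a deacetylase of DP thymocytes, whose chain held 6 and 6 peaks against 2 and 1. Migration and adhesion genes had 2 of 20, the integrin gene Itga4 with 5 and 5 against 4 and 1 and the Rac activator Prex1 with 7 and 7 against 1 and 0. Markers of other cells were reached through neighbours: Blnk of B cells next to the Dntt chain, Mpo of myeloid cells next to the miR-142 chain and Klrb1c of NK cells between chains of its own gene family. Erythroid and thymic stromal genes had 0 of 10 and 0 of 12. Housekeeping genes had 2 of 12 (16.7%), Actb in a chain and Rplp0 next to the one at Pxn, so a share of this size was not limited to T cell lists. No test was made of these shares, since the members and the lists were chosen with results known.

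Chains were also looked for in each list alone, which treats all 4 lists in the same way. DP 1 and DP 2 gave 318 and 937 chains, against 91 and 52 in DN 1 and DN 2. The mean was 627.5 ± 438 in DP lists and 71.5 ± 27.6 in DN lists (SD, n = 2 each). The exact two-sided permutation test of the difference, 556 chains, gave p = 0.333. This is the smallest that 2 lists against 2 can give, so the test could not decide whether the groups differ. The DP peaks that chose the members are also among those counted here. Lists were also cut to the 33118 peaks of lowest p-value, with ties kept in genome order. DN 2 had this length already. In DP 1 and DN 1, 29.1 and 35.4% of peaks share the largest p-value, and the cut fell among them. It therefore dropped tied peaks of the later chromosomes only, and the effect on chain counts was not tested. At this length DP 1 and DP 2 gave 253 and 221 chains, against 73 and 52. The means were 237 ± 22.6 and 62.5 ± 14.8, a difference of 174.5 (p = 0.333, exact permutation test, n = 2 each). The values of the groups did not overlap at either length, which is a description only. The cut lists held 20891 and 22293 distal regions in DP cells against 23246 and 24889 in DN cells. Chains held 7.22 and 6.1% of the distal regions of the cut DP lists, against 1.82 and 1.22% of those of the DN lists.

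**Figure D5:**
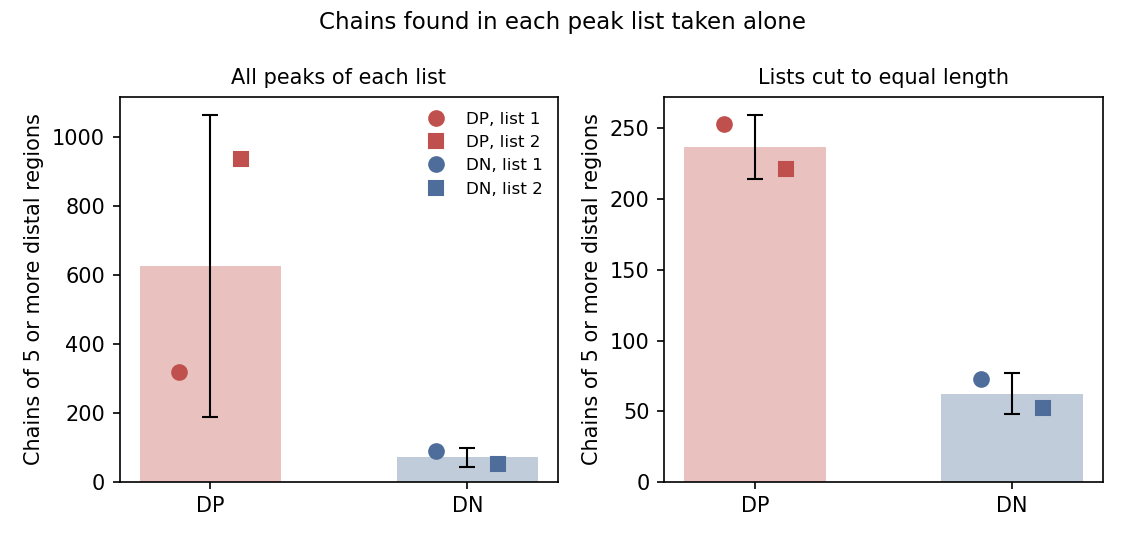
Number of chains of 5 or more distal regions in each list taken alone, with all peaks (left) and with lists cut to 33118 peaks (right). Circles and squares are lists 1 and 2, bars are means and whiskers are SD (n = 2). Both DP points stand above both DN points in each panel.

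The choice was also turned round, and regions in both DN lists were chained by the same rule. Here 7735 distal regions gave 6 chains with 33 regions (0.427%), against 5.53% in the DP lists. The DP share rests on more distal regions, 13668, and the part of their number in this gap was not tested. Of the 6 DN chains, 3 (50%) overlapped a chain of DP cells, at Dnttip2, Sfi1 and Bach1, which is 2.31% of the 130. The other 3 lay between Zfp992 and Zfp981, in Ston2 and in Cfap20dc. Of the chains of DN 1 alone, 28 of 91 (30.8%) overlapped 28 of the 130 DP chains (21.5%), and of those of DN 2 alone, 6 of 52 (11.5%) overlapped 6 (4.62%).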

How the data were processed

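There is 1 peak list per sample. Besides coordinates, each deposited list holds the authors' p-value for every peak, which served here only to rank peaks within a list. Per the submitters' processing notes, the build is mm10 and Bowtie2 and Picard were used, with no version or role stated. PeakDEck, the peak caller, is named only by the deposited lists. The sources used here do not give its settings, the read filters or any shift of cut sites, and depth is unknown.

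Groups and replicate numbers came from the labels. Peaks outside chromosomes 1 to 19 and X were left out (22, 20, 14 and 13 in DP 1, DP 2, DN 1 and DN 2). Coordinates are counted from 1. A list holds a region when it has a peak in it. The next gene was sought within 100 kb and microRNAs within 5 kb, in the RefSeq gene table of GRCm38. Members and gene lists were chosen with earlier results of these data known. Chains named were the 12 with most regions, the most and least held by DN lists among those of 8 or more regions, and those at genes of the lists (up to 8 a list). Others are said to be picked after their values were seen, or belong to microRNAs or receptor loci. Some genes are not reported here. The planned motif comparison over all members was not run, since no genome was used here. Promoter windows stood in for it. Merging and chaining were tested on simulated peaks. Python 3.11.15, pandas 2.3.3, numpy 2.4.6, scipy 1.17.1 and matplotlib 3.10.9 were used. The alternatives were the gap, the run length, the distance from gene ends, the merging, the share of a region covered, the stronger peaks, equal list lengths, each list left out, and chains or promoters left out.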

Additional observations from a re-analysis of the deposited data

How the results depend on the processing

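The main values were 130 chains, 756 regions, 356 in neither and 173 in both DN lists, a difference in mean share held of -4.89 percentage points (clustered minus unclustered) and 264 genes. With gaps up to 20 kb there were 242 chains, 1451 regions, 694 in neither and 320 in both DN lists, 508 genes and a difference of -6.04. With runs of at least 4 these were 281, 1360, 645, 300, 539 and -5.77, and with at least 6 they were 57, 391, 184, 98, 121 and -3.62. With the top 50% of each list they were 48, 270, 133, 62, 105 and -4.25. Lists of equal length gave 81 chains, 465 regions, 214 in neither, 171 genes and -6.54. Gaps up to 10 kb gave 93 chains, 519 regions and a difference of -5.84. Gene ends of 500 bp gave 143, 836 and -5.7, and gene ends of 2500 bp gave 103, 595 and -4.22. Merging peaks within 250 bp gave 119, 693 and -5.42. Of the alternatives chosen after seeing the data, leaving out the Sfi1 chain gave a difference of -5.47 and leaving out the receptor chains -4.22. The last of these, without annotated promoters and noncoding gene ends, gave 88 chains, 515 regions, 250 in neither DN list, 169 genes and -3.18. Leaving out 1 list at a time gave 130 to 926 chains, 756 to 6388 regions, 264 to 1117 genes and a difference of -5.31 to 3.5. Without DP 1 and without DP 2, 5073 and 1109 regions were in neither DN list and 517 and 324 in both. The mean share held was then 14.3 and 29.5%. Without DN 1 and without DN 2, only 1 DN list was left. It lacked 546 and 398 regions and held 28.3 and 47.4%. The reversed value, 3.5, came without DP 2. Chains in a single list differed by 556 (DP minus DN), by 174.5 at equal length, and by 410.5 and 886 with gaps up to 10 and 20 kb. The replicate numbers are not stated to pair samples. As a replicate block they gave differences of 227 and 885, with the same mean of 556. Limits: 2 lists a group, unknown depth, and members chosen on DP peaks.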
